A study of Mus musculus with 6 samples.

Results

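The cells described here are dendritic cells that carried transcripts of Ccr7 and Fscn1 but none of Epcam or Cd207, from lymph nodes of mice with or without melanoma. They were selected on measured values, from droplet libraries of node cells taken with magnetic beads against CD11b and CD11c. A cell was kept if it had no fewer than 500 unique transcript counts (UMIs) and 300 detected genes, and no more than 10% of its UMIs from mitochondrial genes. It was then gated with at least 2 UMIs of Ccr7, at least 2 of Fscn1 and none of Epcam, Cd207, Cd3e or Cd79a. The gate held 2860 of 24721 kept cells: 1464 naive, 695 YUMM1.7 and 701 YUMMER1.7. Sets of 3 values run in that order of libraries throughout. All 6 libraries of the study, the others being a fraction labelled as depleted of CD45+ cells, held 53259 kept cells. The inguinal and axillary nodes came from C57Bl/6 mice without a tumour (naive) or with a YUMM1.7 or YUMMER1.7 melanoma. The YUMM1.7 line comes from a mouse melanoma, and ultraviolet irradiation of it gave YUMMER1.7, which carries more mutations and is more immunogenic. Nodes of several mice were pooled, and each group was 1 library, so no difference between groups has a replicate check and no test was made. Neither the ages of the mice nor the times after tumour injection were known here.

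Migratory dendritic cells take up antigen in skin and other tissues, mature, and travel through lymphatic vessels to the draining node. The chemokine receptor CCR7 guides them along its ligands, and fascin, the product of Fscn1, bundles actin in their long processes. In the node they show peptides to T cells on MHC molecules, together with co-stimulatory or inhibitory surface ligands and with cytokines that shape the T cell response. Epcam and Cd207 mark Langerhans cells and some other skin dendritic cells, which the gate left out where a transcript of either was detected.

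The gate did not use 3 of the known markers, which served as a check of the label. Cacnb3, a calcium channel subunit, stood at 375, 416 and 551 CPM (UMIs of a gene per 1000000 UMIs summed over the gated cells of a library), against 38.5, 19.6 and 18.7 CPM in the other kept cells. It was detected in 52.3%, 52.6% and 58.8% of gated cells thinned to 2000 UMIs, and in 2.58%, 1.79% and 1.53% of B cells thinned alike. Without thinning it was detected in 89.1%, 91.7% and 92.2% of gated cells, whose median depths were 11437.5, 12798 and 13236 UMIs. Ccl22, a chemokine for CCR4+ T cells, was found in 35.7%, 30.9% and 32.0% of thinned gated cells against 2.58%, 2.01% and 0.974% of B cells. Il4i1, an amino acid oxidase, was found in 61.2%, 58.2% and 58.9% against 10.7%, 11.8% and 12.9%. All 3 markers therefore stood above the B cell level in every library.

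The gated cells held medians of 6, 8 and 9 Ccr7 UMIs and of 15, 18 and 20 Fscn1 UMIs. Just inside the thresholds were 236, 111 and 86 cells with exactly 2 UMIs of either gene. Just outside were 198, 114 and 81 cells with 1 UMI of Ccr7, and 62, 36 and 42 cells with 1 UMI of Fscn1, that met the other limit. A further 154, 51 and 43 cells passed both limits but carried Cd3e or Cd79a. The same limits with a UMI of Epcam or Cd207 held 212, 130 and 95 cells, which are compared near the end.

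The 3 enriched libraries held between 78305030 and 86471908 UMIs, and the gated cells 17337429, 9446598 and 9963638 of them. No barcode of a gated cell was shared between enriched libraries. When the gated cells were clustered alone, sub-clusters 4, 7 and 9 were led by genes of other lineages (Ly6c2, F13a1 and Plac8, then Gzma and Nkg7, then S100a8). They held 111, 37 and 33 of the 2860 cells. Values without them are given below for some genes, but not every gene was read that way. Ly6a, Plac8, S100a8, Ccl3, Ccl6, Clec4a1, Clec4a2, Clec4a3, Clec4n, Ier3, Top2a and Tyms were not. Summed markers of neutrophils stood at 458, 862 and 1296 CPM in the gated cells, with 4 of the 7 markers compared at least 2-fold higher in YUMM1.7 than in naive and 6 in YUMMER1.7. Monocyte markers stood at 683, 1132 and 1773 CPM, with 4 and 5 of 8 at least 2-fold higher, against 5457, 9493 and 10703 CPM in the other kept cells. Plac8, a monocyte gene, stood at 57.1, 260 and 469 CPM, and S100a8, a neutrophil protein, at 163, 329 and 516 CPM. A single cell gave 71.8% of the S100a8 UMIs of the YUMM1.7 library. Summed markers ran the other way for natural killer cells (74.3, 28.3 and 19.4 CPM), T cells (67.0, 34.1 and 26.9 CPM) and B cells (56.9, 44.6 and 42.1 CPM). Macrophage markers stood at 234, 213 and 275 CPM, plasmacytoid dendritic cell markers at 474, 588 and 474 CPM, and mast cell and basophil markers at 39.9, 34.0 and 32.4 CPM. Stromal, keratinocyte and melanocyte markers summed to at most 35.3 CPM in any library, and 5, 6 and 6 of the 9 melanocyte markers were at 0. The part of these other markers in the results below was not tested beyond the values without sub-clusters 4, 7 and 9.

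The gated cells made up 14.0% of kept cells in the naive library (exact Clopper-Pearson 95% interval 13.3 to 14.7%). They made up 9.33% in the YUMM1.7 library (8.67 to 10.01%) and 10.3% in the YUMMER1.7 library (9.59 to 11.1%). The naive share lay above both tumour shares, whose intervals overlapped each other. All intervals cover counting error only, and not the spread between mice or libraries. Those of the log2 ratios below count each UMI as an independent draw, so they also leave out the spread between cells. The bead enrichment and the number of other cells caught with it set the denominator, so a lower share and a larger number of other cells cannot be told apart. Without cells carrying Cd3e or Cd79a in the denominator the shares were 18.4%, 10.7% and 12.7%. Cells thinned to 2000 UMIs before gating gave 6.11%, 4.19% and 5.06%. When gated cells with a UMI of any of 8 genes of other lineages were left out, the shares were 7.33%, 5.30% and 3.56%, so the order of the tumour libraries was reversed while naive remained highest.

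**Figure D1:**
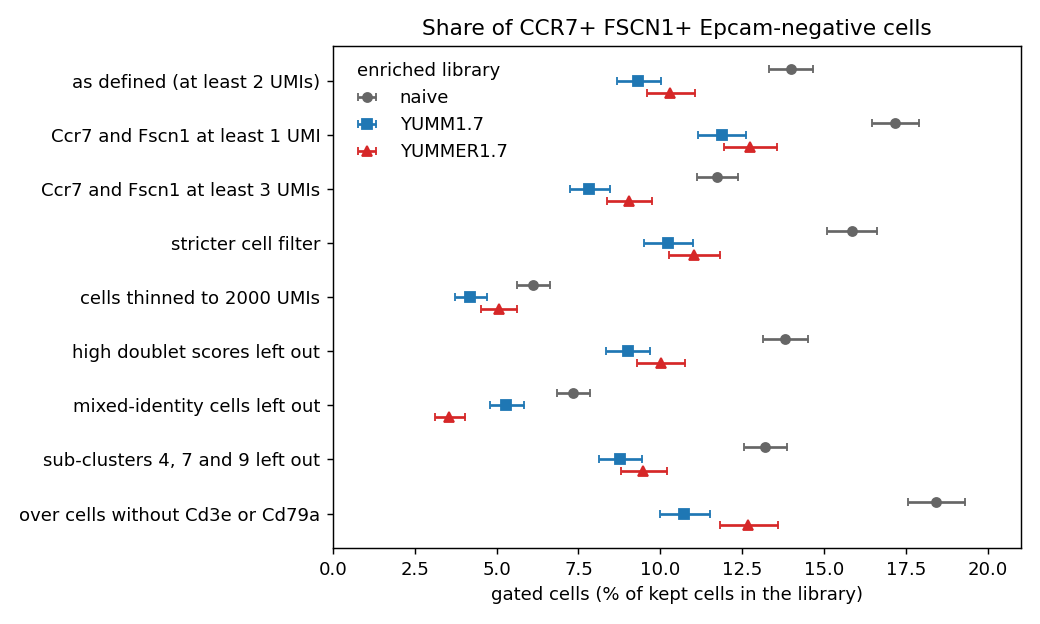
Gated cells as a percentage of kept cells (x axis) by library, for the gate as defined and for 8 alternatives (y axis); bars are exact 95% intervals for counting error. The naive library has the highest share in each row, and the tumour libraries change places where mixed-identity cells are left out.

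Among 7480 genes with a mean of at least 10 CPM over the 3 libraries, 111 (1.48%) were at least 2-fold higher and 38 (0.508%) at least 2-fold lower in YUMM1.7 than in naive cells. In YUMMER1.7 against naive the numbers were 196 (2.62%) and 125 (1.67%). In YUMMER1.7 against YUMM1.7 they were 21 (0.281%) and 32 (0.428%). The median log2 ratio over all genes was within 0.003 of 0 in each pair. Both tumour comparisons share the naive library, so each comparison's values are set side by side. A single value over a library mixes the level within cells with the makeup of the gate, and values within sub-clusters are given further on.

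Cytokines and Notch ligands that steer T helper cells held some of the highest ratios. Of 11 members compared, 3 were at least 2-fold higher in YUMM1.7 (Il12b, Il27 and Dll4) and 4 in YUMMER1.7 (Il12b, Il27, Il6 and Osm), with none lower. Their median log2 ratios were 0.46 and 0.19. Il12b, the p40 subunit shared by interleukins 12 and 23, stood at 93.8 CPM in naive, 205 CPM in YUMM1.7 and 376 CPM in YUMMER1.7 cells. The 3 libraries were thus in the order naive, YUMM1.7, YUMMER1.7, with log2 ratios to naive of 1.12 (interval 1.03 to 1.22) and 2.004 (1.92 to 2.09). One YUMM1.7 cell gave 17.4% of the Il12b UMIs of its library, and without the highest cell of each library the YUMM1.7 ratio was 0.97. Il12b was detected in 6.70%, 11.5% and 17.6% of thinned gated cells, and in at most 0.408% of thinned B cells. Il27, the p28 subunit of interleukin 27, stood at 8.77, 25.3 and 36.7 CPM, again lowest in naive. Its log2 ratios were 1.53 (1.23 to 1.83) and 2.07 (1.79 to 2.35). Il6 stood at 11.9, 22.7 and 58.3 CPM, with a YUMMER1.7 ratio to naive of 2.29 (2.06 to 2.52). Osm, a cytokine of the interleukin 6 family, stood at 16.0, 22.97 and 34.7 CPM, but its YUMMER1.7 ratio was −0.02 without mixed-identity cells. Dll4, a Notch ligand, stood at 11.4, 27.4 and 13.05 CPM, with the naive and YUMMER1.7 levels close to each other.

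Co-stimulatory ligands gave no common direction: 2 of 14 members compared were at least 2-fold higher in each tumour library, both times Cd70 and Tnfsf4, and the list medians were 0.15 and −0.02. Cd70, the ligand of CD27, stood at 3.63, 16.9 and 19.3 CPM, with log2 ratios of 2.22 (1.79 to 2.66) and 2.41 (1.99 to 2.84). Tnfsf4, which encodes OX40 ligand, stood at 11.2, 26.4 and 32.8 CPM, and 33.3% of its YUMM1.7 UMIs came from 1 cell. Without the highest cells the YUMM1.7 ratio of Tnfsf4 was 0.85 and the YUMMER1.7 ratio 1.59. The more abundant B7 genes were higher in both tumour libraries by less than 2-fold: Cd86 stood at 370, 681 and 607 CPM and Cd80 at 134, 225 and 202 CPM. Cd83, a maturation marker, ran the other way at 883, 737 and 605 CPM. Cd40 stood at 368, 405 and 320 CPM and Icosl at 99.8, 145 and 123 CPM.

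Inhibitory and tolerance-linked genes were split. Of 15 compared, Btla was at least 2-fold higher in both tumour libraries and Pdcd1lg2 in YUMMER1.7, whereas Aldh1a2 was at least 2-fold lower in both and Itgb8 in YUMMER1.7. The list medians were 0.17 and 0.45. Pdcd1lg2, which encodes the PD-1 ligand PD-L2, stood at 36.6, 70.6 and 115 CPM, with log2 ratios of 0.95 (0.79 to 1.11) and 1.65 (1.505 to 1.79). It was detected in 5.94%, 11.2% and 18.4% of thinned gated cells, beside 10.1%, 11.2% and 8.34% of thinned B cells. The YUMM1.7 share was level with that of B cells and the naive share below it. Detection of Pdcd1lg2 therefore does not set the gated cells apart from B cells in those 2 libraries. How much of it came from other cells was not tested. Cd274, which encodes PD-L1, stood at 366, 547 and 621 CPM, higher in both tumour libraries by less than 2-fold. Cd200, whose product binds an inhibitory receptor on myeloid cells, stood at 82.5, 158 and 162 CPM. Btla, an inhibitory receptor that binds HVEM, stood at 33.5, 94.7 and 85.7 CPM, with log2 ratios of 1.502 (1.35 to 1.66) and 1.36 (1.20 to 1.51). Aldh1a2, which makes retinoic acid, stood at 73.4, 20.7 and 26.0 CPM, with log2 ratios of −1.82 (−2.05 to −1.60) and −1.497 (−1.70 to −1.30). In the other kept cells Btla stood higher, at 125, 112 and 93.2 CPM, and B cells, which express it, carried it in 56.3%, 52.9% and 47.6% of thinned cells. Thinned gated cells carried Btla in 4.70%, 10.1% and 11.7%. The gate left out cells with Cd79a, and the part of B cell transcripts in the Btla levels was not tested. Itgb8, a subunit of an integrin that activates TGF-beta, stood at 77.2, 47.7 and 27.6 CPM. Cd274, Pdcd1lg2, Cd200 and Btla were thus higher in both tumour libraries, and Aldh1a2 and Itgb8 lower.

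**Figure D2:**
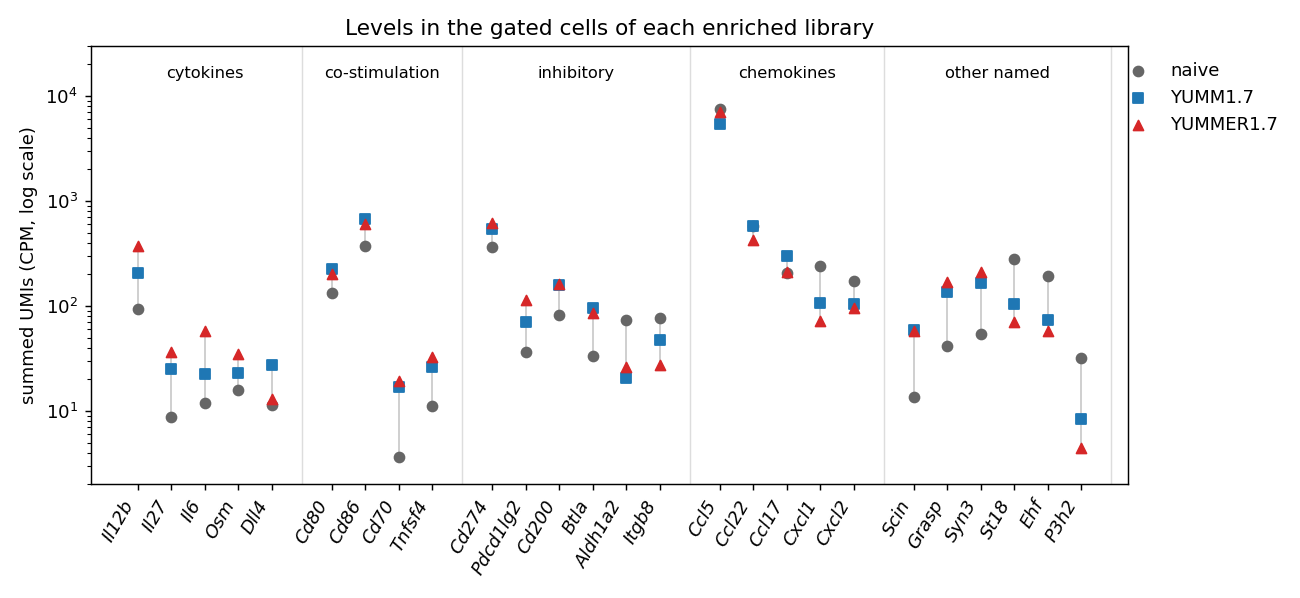
Summed UMIs of the gated cells in CPM on a log axis (y) for genes grouped by role (x), with 1 point per library and a grey line between the lowest and highest. From naive through YUMM1.7 to YUMMER1.7, Il12b stands at 93.8, 205 and 376 CPM and Aldh1a2 at 73.4, 20.7 and 26.0 CPM.

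Chemokines had medians near those of all genes (−0.05 and 0.03 over 14 members). Ccl5, the most abundant, stood at 7512, 5449 and 7031 CPM, and the CCR4 ligands Ccl22 and Ccl17 at 577, 578 and 429 CPM and 207, 302 and 209 CPM. None of these 3 differed from naive by 2-fold. Cxcl1, a neutrophil attractant, was lower in both tumour libraries, at 241, 108 and 72.2 CPM, with log2 ratios of −1.17 (−1.27 to −1.07) and −1.74 (−1.86 to −1.63). Its neighbour Cxcl2 stood at 174, 104 and 96.5 CPM, a smaller difference. Ccl9 was at least 2-fold lower in YUMMER1.7 (68.1, 43.5 and 29.7 CPM), and Ccl6 (29.9, 38.6 and 71.9 CPM) and Ccl3 (13.9, 24.1 and 33.6 CPM) were at least 2-fold higher there. One YUMMER1.7 cell gave 50.7% of the Ccl3 UMIs. Cxcl10, induced by interferons, stood at 30.7, 73.6 and 38.9 CPM, but its YUMM1.7 ratio to naive was −0.15 without sub-clusters 4, 7 and 9.

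The 250 bases before the RefSeq start (GRCm38.p6) are shown for 5 genes whose promoters held a searched motif. These genes were chosen after the matches were seen, and no link between a motif and a level was tested. The NF-kB motif searched was GGG, any pair of bases, then TTTCC, and the interferon response motif was GAAA, any pair of bases, then GAAA, both on either strand. Such matches were found in 1.41% and 2.98% of 32851 promoter windows of the same length. The AP-1 motif, TGA, any base, then TCA, was also searched and was found in 6.75% of these windows. Capitals mark the NF-kB motif in Cxcl1, Cxcl2, Il6 and Tnfaip3, and the overlapping interferon motifs in Isg15.
Cxcl1 (chr5:90890995-90891244, plus strand): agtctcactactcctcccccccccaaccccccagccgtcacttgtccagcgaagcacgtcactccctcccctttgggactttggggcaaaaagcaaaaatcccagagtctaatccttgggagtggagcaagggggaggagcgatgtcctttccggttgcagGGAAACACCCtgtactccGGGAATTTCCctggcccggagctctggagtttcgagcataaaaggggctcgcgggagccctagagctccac
Cxcl2 (chr5:90903649-90903898, plus strand): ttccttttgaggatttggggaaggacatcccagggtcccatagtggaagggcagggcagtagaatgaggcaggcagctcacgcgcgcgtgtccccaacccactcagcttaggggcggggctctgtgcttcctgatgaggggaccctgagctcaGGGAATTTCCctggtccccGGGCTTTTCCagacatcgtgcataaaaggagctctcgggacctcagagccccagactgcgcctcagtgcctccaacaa
Il6 (chr5:30012864-30013113, plus strand): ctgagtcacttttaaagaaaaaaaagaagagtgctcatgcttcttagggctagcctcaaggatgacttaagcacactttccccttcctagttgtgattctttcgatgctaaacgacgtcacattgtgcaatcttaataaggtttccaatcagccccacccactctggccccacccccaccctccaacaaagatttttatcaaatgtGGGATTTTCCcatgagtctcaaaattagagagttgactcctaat
Tnfaip3 (chr10:19015411-19015660, minus strand): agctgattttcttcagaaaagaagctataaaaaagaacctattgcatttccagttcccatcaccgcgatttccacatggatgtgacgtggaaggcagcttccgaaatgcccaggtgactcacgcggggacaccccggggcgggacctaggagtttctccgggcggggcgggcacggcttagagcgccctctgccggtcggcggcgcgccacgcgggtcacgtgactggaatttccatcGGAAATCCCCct
Isg15 (chr4:156200819-156201068, minus strand): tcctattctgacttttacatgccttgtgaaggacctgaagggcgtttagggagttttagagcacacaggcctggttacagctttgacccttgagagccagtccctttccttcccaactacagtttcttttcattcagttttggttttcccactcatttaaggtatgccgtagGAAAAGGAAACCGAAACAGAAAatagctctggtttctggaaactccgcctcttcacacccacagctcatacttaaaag
Of the 75 named genes whose promoter was read, 7 held the NF-kB motif. Cxcl1, Cxcl2, Tnfaip3, Ccl9 and Nfkbia were lower than naive in both tumour libraries, Il6 was higher in both, and Hdac9 stood at 42.4, 69.5 and 32.1 CPM. The interferon motif was found for 4, which were Isg15, Cxcl10, Apol7c and Mylk. The AP-1 motif, not marked in capitals, was found for Ccl9, Cd80, Cxcl10, Hdac9, Il6, Mmp12, Ms4a7, Mylk and Tnfaip3. A match is a description of the letters and not a measured site.

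Of 24 NF-kB members and feedback genes compared, 1 was at least 2-fold lower in YUMMER1.7 and none higher in either tumour library, and the list medians were 0.03 and −0.03. That gene was Tnfaip3, an inhibitor of NF-kB signalling known as A20, at 536, 347 and 259 CPM. Nfkbia, which holds NF-kB in the cytoplasm, stood at 1677, 1353 and 1141 CPM, and Birc3 at 642, 533 and 472 CPM, both in the same order. Relb, a subunit needed for dendritic cell maturation, stood at 903, 839 and 825 CPM. In the list of immediate early and heat shock genes, Egr1 was at least 2-fold lower in both tumour libraries (79.8, 18.0 and 19.6 CPM). Jun ran the other way at 80.2, 124 and 202 CPM, and Ier3 stood at 26.0, 36.7 and 56.7 CPM.

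Of 18 type I interferon genes compared, none reached 2-fold in YUMM1.7 and 3 were higher in YUMMER1.7, which were Isg15, Oasl1 and Rtp4, and the list medians were 0.19 and 0.24. Isg15, a ubiquitin-like protein, stood at 104, 146 and 216 CPM and in the other kept cells at 103, 186 and 265 CPM. The YUMMER1.7 ratio of Isg15 was 1.06, and 0.94 without sub-clusters 4, 7 and 9. The interferon gamma list had medians of −0.16 and −0.02 over 16 genes. In it Cxcl10 was at least 2-fold higher in YUMM1.7 and Ly6a in YUMMER1.7 (7.21, 7.41 and 25.9 CPM). The Cxcl10 ratio was −0.15 without sub-clusters 4, 7 and 9, as given above. Ly6a was a leading gene of sub-cluster 4, at 136 CPM against 3.61 CPM in the other gated cells. That sub-cluster made up more of the gate in both tumour libraries than in naive. Its part in the Ly6a difference was not tested.

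Antigen presentation genes were mostly close to 1-fold. None of 12 MHC class II genes reached 2-fold, with medians of 0.27 and 0.52 that lay above that of all genes. H2-Aa stood at 2245, 2486 and 2555 CPM and Ciita, its master regulator, at 46.7, 73.7 and 81.6 CPM. Of 21 MHC class I genes only H2-M2, a non-classical class I gene, reached the limit, and it was lower (685, 381 and 341 CPM). For the immunoproteasome gene Psmb9 the levels were 370, 425 and 561 CPM. For Tap1, a part of the transporter that carries peptides to class I molecules, they were 132, 154 and 192 CPM.

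Among 21 lysosomal and antigen processing genes, Rnaset2a was at least 2-fold higher in YUMM1.7, and Cst3, Ctsl, Rnaset2a and Rnaset2b in YUMMER1.7. Cst3, a cathepsin inhibitor abundant in dendritic cells, stood at 2786, 3923 and 5620 CPM. Rnaset2a, a lysosomal ribonuclease, stood at 64.6, 162 and 395 CPM, and its copy Rnaset2b at 19.3, 37.4 and 111 CPM. Their longest coding transcripts shared 2435 of 2448 aligned bases (99.5%), so the division of reads between both genes on chromosome 17 is uncertain, although both were in the same order. The list medians were 0.17 and 0.32.

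The maturation programme that goes with Ccr7 was close to level: of 25 genes compared, Apol7c alone reached 2-fold, lower in YUMMER1.7, and the medians were 0.06 and 0.13. Apol7c, an apolipoprotein L of dendritic cells, stood at 2136, 1718 and 1001 CPM, while Socs2 stood at 690, 717 and 684 CPM. None of 8 chemoattractant receptors reached 2-fold. Among them Gpr183, an oxysterol receptor for positioning in lymphoid tissue, stood at 329, 529 and 396 CPM and Cxcr4 at 126, 82.3 and 75.1 CPM. Of 29 migration and cytoskeleton genes, Scin and Prkg1 were at least 2-fold higher in both tumour libraries and Lmna, a nuclear lamin, was lower in YUMMER1.7 (45.5, 28.3 and 21.6 CPM). Actb stood at 11744, 14556 and 15102 CPM. One naive cell gave 60% of that library's Prkg1 UMIs, and without the highest cells the log2 ratios of Prkg1 to naive were 3.9996 and 2.17.

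The other lists held few genes past the limit. Of 14 C-type lectins and pattern receptors, 5 were higher in each tumour library, among them Clec4a3, Clec4n, Clec4a1 and Clec4a2 in both, and Cd209a was lower (17.1, 8.15 and 6.02 CPM). Clec4a2 stood at 9.17, 18.7 and 26.5 CPM, and these lectins are also expressed by monocytes, whose markers were higher in the same libraries. Of 18 lipid genes Fabp4, a fatty acid carrier, was lower in YUMMER1.7, with medians of −0.26 and −0.27. Of 19 glycolysis and hypoxia genes Gapdh was higher in YUMMER1.7 (330, 524 and 669 CPM). Of 9 cell cycle genes Top2a was higher in YUMM1.7 (12.2, 36.6 and 20.7 CPM) and Tyms in YUMMER1.7 (7.67, 14.6 and 23.3 CPM). None of 16 cell death and survival genes reached 2-fold.

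Ranking all genes by the bound of the interval nearest 0 named 12 genes of 36 that were at least 2-fold higher in both tumour libraries. They were Scin, Grasp, Syn3, Htr7, Siglecg, Mylk, Ikzf4, Rnf157, Chpt1, Il27, Rnaset2a and Btla. Scin (chromosome 12, 40059769 to 40134228), an actin-severing protein, stood at 13.6, 59.1 and 57.3 CPM, with log2 ratios of 2.12 (1.90 to 2.34) and 2.07 (1.85 to 2.30). Both tumour libraries were at about the same Scin level, and 1 cell gave at most 10.8% of the UMIs of any library. Grasp, a scaffold protein of receptor trafficking, stood at 41.8, 137 and 168 CPM. Htr7, a serotonin receptor, stood at 39.1, 120 and 147 CPM, and Syn3, a synapsin, at 54.2, 167 and 213 CPM. Ikzf4, an Ikaros family transcription factor, stood at 16.4, 48.1 and 63.8 CPM. Siglecg, a sialic acid receptor, stood at 15.5, 49.3 and 48.2 CPM, with 24.6, 38.3 and 36.4 CPM in the other kept cells. Each of the 12 genes kept 2-fold in both tumour libraries without sub-clusters 4, 7 and 9, without mixed-identity cells, and without its highest cell. After thinning before the gate, 11 of the 12 did.

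The 12 named genes of 20 that were at least 2-fold lower in both tumour libraries were Mmp12, Mucl1, P3h2, Retnla, St18, Aldh1a2, Ehf, Ephx1, Calm4, Cxcl13, Pcdh7 and Cxcl1. St18 (chromosome 1, 6487231 to 6860940), a zinc finger transcription factor, stood at 278, 105 and 69.8 CPM, with log2 ratios of −1.41 (−1.51 to −1.31) and −1.99 (−2.11 to −1.88). Ehf, an epithelial Ets factor, stood at 192, 73.4 and 58.0 CPM, with log2 ratios of −1.39 (−1.51 to −1.27) and −1.72 (−1.85 to −1.60). Mucl1, a mucin-like protein listed with the epidermal markers, stood at 37.3, 5.61 and 1.004 CPM, and P3h2, a collagen prolyl hydroxylase, at 32.2, 8.47 and 4.42 CPM. Several of the 12 rested on few cells. One naive cell gave 75.3% of the Retnla UMIs of its library (42.05, 10.6 and 13.4 CPM), and without the highest cells its log2 ratios were −0.54 and −0.29. One naive cell gave 35.5% of Cxcl13 (36.9, 7.52 and 13.6 CPM) and 1 gave 30.6% of Mmp12 (35.1, 1.80 and 1.91 CPM). Without the highest cells the ratios of Cxcl13 were −1.80 and −0.87. Of the 12, 11 stayed past 2-fold in both tumour libraries without sub-clusters 4, 7 and 9, 9 without mixed-identity cells, 10 without the highest cells and 10 after thinning before the gate. Without sub-clusters 4, 7 and 9 Retnla was higher than naive by 0.05 and 0.43.

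Between the tumour libraries 10 genes were at least 2-fold higher in YUMMER1.7 by the same rule: Rnaset2b, Pxmp2, Rnaset2a, Il6, Slc27a3, Prkca, Bcl2l14, Casc1, Sned1 and St3gal5. Of these 10, 6 stayed past 2-fold without mixed-identity cells and 7 after thinning before the gate or as a mean over cells. Il6 had a log2 ratio of 1.36 (1.14 to 1.60), which was 1.28 without sub-clusters 4, 7 and 9 and 0.99 without mixed-identity cells. Bcl2l14 stood at 43.0, 60.7 and 126 CPM, and Pxmp2, a peroxisomal channel, at 3.86, 6.99 and 22.8 CPM. Prkca, a protein kinase C, stood at 34.6, 20.2 and 45.9 CPM, so YUMM1.7 was the lowest. The 10 named genes lower in YUMMER1.7, of 12, were Cadm2, Prkg1, Fhit, Sgcz, Hdac9, Tmem132c, Mamld1, Kcnq3, Dll4 and Fabp4. In 3 of them 1 cell dominated a library: 62.6% of Fhit and 61.8% of Sgcz in YUMM1.7, and 56.4% of Cadm2 in YUMMER1.7. Without the highest cells the log2 ratio of Fhit was −0.44, while those of Sgcz and Cadm2 were −1.13 and −2.51. Mamld1 (38.8, 35.1 and 16.7 CPM) and Kcnq3 (58.5, 36.9 and 18.1 CPM) had no cell above 8% of a library. Of the 10, 3 stayed past 2-fold after thinning before the gate, 5 with at least 3 UMIs of Ccr7 and Fscn1, and 7 without mixed-identity cells.

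Sub-clusters 0, 1, 3, 5 and 6 held at least 50 cells in each library. They were led by Serpinb9b, Mucl1 and Aldh1a2, by Il12b and Slc27a3, by Cxcl1 and Egr1, by Syn3 and Rnaset2a, and by Tmem132c, Mmp12 and Cd209a, so these genes describe the clusters and are no finding about them. Sub-cluster 5, led by Syn3 and Rnaset2a, held 162, 166 and 246 cells, and sub-cluster 8, led by Sgcz, Pcdh7 and Cadm2, held 75, 17 and 10. Sub-clusters 0 and 3 made up less of the gate in both tumour libraries (42.9%, 21.2% and 12.8%, then 21.7%, 15.1% and 11.6%). Sub-cluster 1 made up more (6.08%, 18.0% and 18.5%). Their leading genes include Aldh1a2 and Itgb8 in 0, Il12b, Isg15 and Tnfsf4 in 1, and Cxcl1, Cxcl2 and Egr1 in 3. For the leading genes of all these sub-clusters, a difference between whole libraries cannot be told apart from the number of such cells. In sub-cluster 0, with 628, 147 and 90 cells, Scin was not higher in the tumour libraries (6.98, 3.51 and 3.38 CPM). In sub-clusters 1, 3, 5 and 6 it was higher in both, for example at 26.4, 126 and 109 CPM in sub-cluster 1 (89, 125 and 130 cells). Btla was likewise higher in both tumour libraries in sub-clusters 1, 3, 5 and 6 and not in 0 (5.59, 6.51 and 4.22 CPM). Its highest levels were in sub-cluster 6, at 176, 322 and 261 CPM. Sub-cluster 6 made up more of the gate in both tumour libraries (7.38%, 13.4% and 10.98%). The part of this makeup in the Btla difference between whole libraries was not tested. Pdcd1lg2 was higher in both tumour libraries in sub-clusters 0, 1, 3 and 5, with 33.3, 68.0 and 131 CPM in sub-cluster 5. Il12b was lower in both in sub-cluster 0 (25.7, 9.52 and 6.75 CPM) and higher in both in sub-clusters 1, 5 and 6, with 54.3, 123 and 413 CPM in sub-cluster 5.

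St18 was lower in both tumour libraries in all 5 sub-clusters, from 362, 264 and 217 CPM in sub-cluster 0 to 170, 56.0 and 13.7 CPM in sub-cluster 5. Ehf was lower in both in all 5 as well, with a small difference in sub-cluster 0 (246, 213 and 192 CPM) and a larger one in sub-cluster 5 (54.3, 6.02 and 9.0045 CPM). Aldh1a2 in sub-cluster 0 stood at 112, 56.1 and 110 CPM, so the naive and YUMMER1.7 levels were close there, while it was lower in both tumour libraries in sub-clusters 3, 5 and 6. Cxcl1 was lower in both in sub-clusters 0, 3 and 6 (880, 475 and 307 CPM in sub-cluster 3) and higher in both in sub-clusters 1 and 5. Counting sub-clusters with more than 3 UMIs in any library, 6 of the 12 genes named as higher and 5 of the 12 named as lower lay on that side in every one. For 11 and 8 of them this held in all or all but 1. Pcdh7 could be read in 1 sub-cluster and Mucl1 in 2, and both count among the 5. Of the genes named between the tumour libraries, 6 of the 10 higher and 1 of the 10 lower in YUMMER1.7 lay on that side in every one. All these genes were chosen for their differences over the same gated cells, so these counts are no independent support. The same count over all genes was not made. Retnla lay on its named side in none, and Il27 in 3 of 5 sub-clusters, not in 0 and 3.

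**Figure D3:**
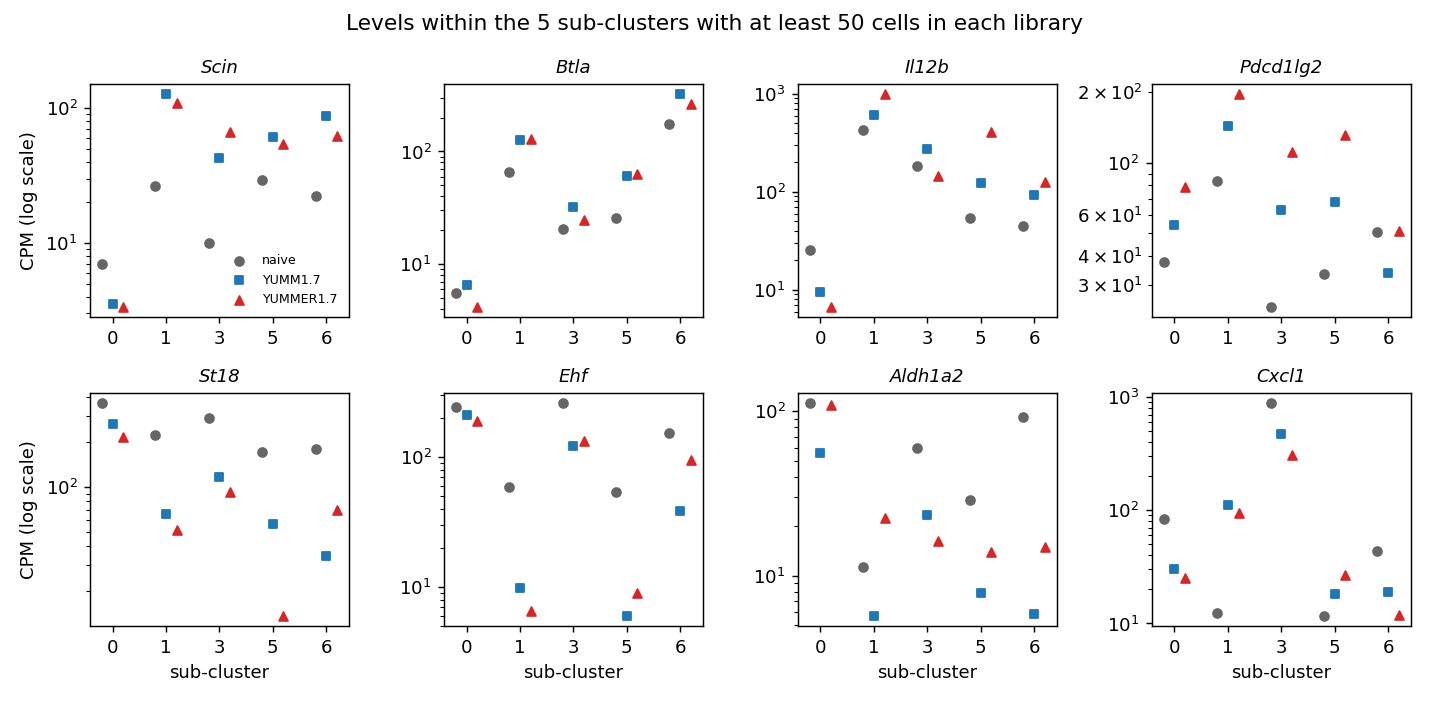
CPM on a log axis (y) within each of 5 sub-clusters of gated cells (x) for 8 genes, with 1 point per library. St18 and Ehf are lowest in the tumour libraries in every sub-cluster, whereas Scin and Btla are higher there in sub-clusters 1, 3, 5 and 6.

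Gated cells were also divided by transcripts that mark the 2 conventional lineages, cDC1 and cDC2. Cells with more UMIs of 14 cDC1 markers than of 15 cDC2 markers made up 6.15% (4.97 to 7.50%), 10.2% (8.07 to 12.7%) and 14.98% (12.4 to 17.8%) of gated cells. This order rested on Irf8, a transcription factor of cDC1 that stood at 238, 375 and 529 CPM over all gated cells: without it the shares were 2.39%, 2.88% and 2.57%. Without Tmem176a and Tmem176b among the cDC2 markers they were 68.2%, 71.4% and 75.2%, so the division gives a range and no cell type. Of these cells 16, 10 and 17 lay within 1 UMI of the dividing line. Il12b stood at 551, 939 and 1781 CPM in the cells with more cDC1 transcripts and at 67.5, 122 and 117 CPM in those with more cDC2 transcripts. The cDC2 marker list over all gated cells had medians of 0.55 and 0.66 over 10 genes, and the cDC1 list −0.41 and 0.21 over 6.

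The same gate in the fraction labelled as depleted of CD45+ cells held 137, 146 and 162 cells. Its libraries shared 49, 13 and 9 barcodes with the enriched library of the same arm, of which 1, in naive, was of a gated cell. They were counted with another gene list, so only ratios within the fraction were compared. Of the 12 genes named as higher, 9 and 11 were above naive there in YUMM1.7 and YUMMER1.7, beside 50% and 52.4% of all genes compared. Of the 12 named as lower, 9 had more than 3 UMIs in a library of the pair, and 8 were below naive in each tumour library, beside 50% and 47.6% of all genes. Scin stood at 57.1, 203 and 232 CPM, St18 at 43.5, 8.54 and 3.46 CPM and Pdcd1lg2 at 16.4, 77.4 and 58.9 CPM, in the same direction as in the enriched fraction. Il12b stood at 206, 470 and 265 CPM, so its highest level there was in YUMM1.7. Btla ran opposite, at 81.4, 63.8 and 53.4 CPM, and so did Cxcl13, at 4.997, 64.3 and 249 CPM. Of the genes named between the tumour libraries, 7 of the 10 higher ones (52% of all genes) and 4 of the 10 lower ones (48%) lay on the same side as in the enriched fraction.

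**Figure D4:**
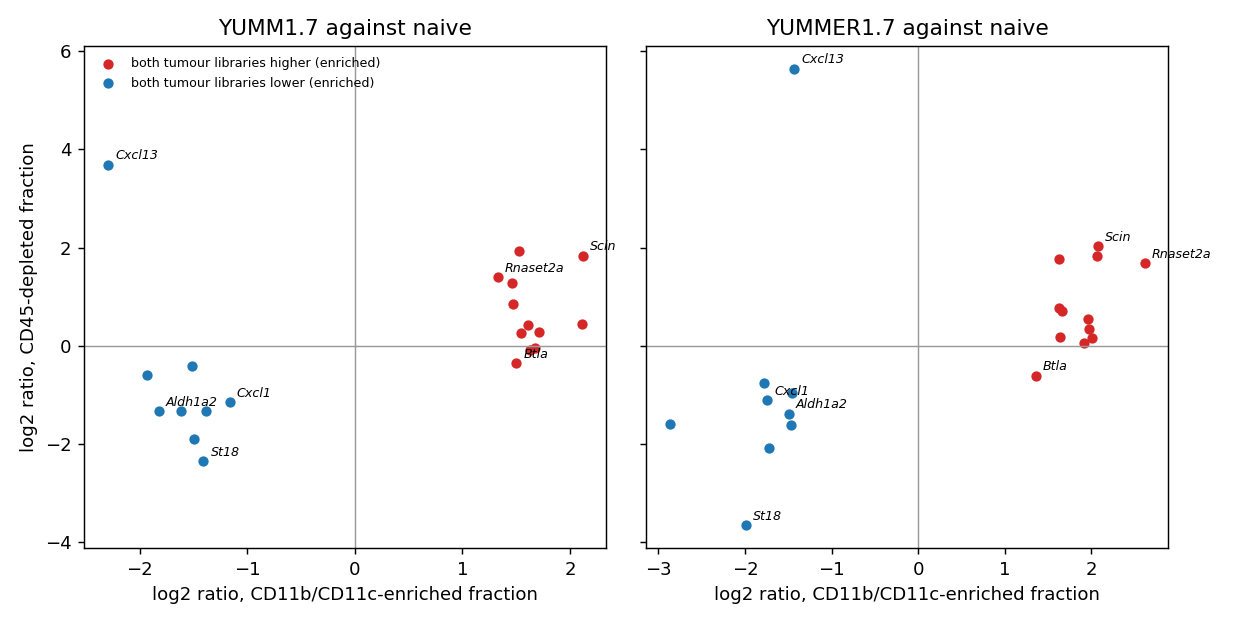
Log2 ratio to naive in the CD45-depleted fraction (y) against that in the CD11b/CD11c-enriched fraction (x) for the genes named as higher (red) or lower (blue) in both tumour libraries, with 1 panel per tumour and genes of 3 or fewer UMIs in both depleted libraries left out. Scin lies above 0 on both axes, whereas Btla and Cxcl13 lie on opposite sides.

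Against the cells that met the Ccr7 and Fscn1 limits with a UMI of Epcam or Cd207, the gated cells were lower in every library for Pcdh7, Sgcz and Mfge8. Within the gate, Sgcz and Pcdh7 led sub-cluster 8, at 2067 and 500 CPM against 5.88 and 2.66 CPM in the other gated cells. Mfge8, a bridging protein for apoptotic cells that is known in Langerhans cells, stood at 98.9, 63.3 and 48.1 CPM in the gated cells and at 230, 145 and 103 CPM in the others. Pcdh7, a protocadherin, stood at 24.7, 8.68 and 9.03 CPM against 219, 72.8 and 88.0 CPM. In the other direction Atp1b1, a sodium pump subunit, stood at 7.84, 19.9 and 15.5 CPM against 1.38, 5.99 and 4.25 CPM, from 4, 13 and 7 UMIs in the cells with Epcam or Cd207. C1qc and Ms4a7, which are macrophage genes, were also higher in the gated cells. Both Mfge8 and Pcdh7 were highest in the naive library in both sets of cells.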

How the data were processed

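Pooled lymph node cells of C57Bl/6 mice were measured as droplet 3′ UMI counts, with 1 library per arm and fraction. The deposited matrices hold whole-number counts of UMIs per gene and barcode. Cell Ranger 8.0.1 with mm10 was used per the submitters' processing notes. The enriched matrices carry version 8.0.1 and the depleted ones 7.0.0 per the file headers, with 32285 and 54752 features, of which 31796 identifiers were shared. How barcodes were called as cells was not known here.

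UMIs of gated cells were summed per library and given as CPM. Each log2 ratio carries a 95% interval from the exact conditional binomial distribution, and a library at 0 was set to 3 UMIs. Genes needed a mean of at least 10 CPM, and 2-fold (log2 of 1) was the limit for a call. With 1 library per group no test was possible. The members and gene lists were chosen with earlier results of these data known. Named genes needed 2-fold in both tumour libraries (at most 12 per direction) or between them (at most 10), 50 or more UMIs and 20 or more CPM in whichever library was higher, with no less than 0.5 times the CPM of the other kept cells. They were ranked by the interval bound nearest 0. Genes of the gate, mitochondrial, ribosomal, haemoglobin, immunoglobulin, T cell receptor and sex-linked genes and unnamed models were left out. From each list, members with the highest CPM or largest ratio are named, and a few were added after their values were seen.

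Gated cells were clustered with scanpy 1.11.5 (2000 variable genes, 30 components, 15 neighbours, Leiden resolution 0.5). Doublets were not removed from the main result. Scrublet's own threshold marked 2.47%, 1.99% and 0.0147% of kept cells, so it did not work in YUMMER1.7, and the 95th percentile of its scores was used as an alternative. No correction was made for free RNA. Intervals were tested on simulated counts, drawn independently for each gene and library. The intervals assume the same, so the simulation cannot show how they perform where few cells hold many of the UMIs. Promoters came from RefSeq and positions from the GENCODE vM21 annotation of mm10. Promoters were read for 75 of 106 named genes, and any on chromosome 18, where Egr1 lies, were left out. Python 3.11.15, scipy 1.17.1 and Biopython 1.88 were used.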

Additional observations from a re-analysis of the deposited data

Results flagged for a closer look

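Btla and Cxcl13 ran in opposite directions in the enriched and the CD45-depleted fraction, in both tumour libraries, and these differences were not tested. Btla had log2 ratios to naive of 1.502 and 1.36 in the enriched fraction for YUMM1.7 and YUMMER1.7, and of −0.35 and −0.61 in the depleted fraction, from 114, 112 and 108 UMIs in its naive, YUMM1.7 and YUMMER1.7 libraries. Cxcl13 had ratios of −2.30 and −1.44 in the enriched fraction and of 3.69 and 5.64 in the depleted fraction, from 7, 113 and 503 UMIs. The highest cell gave 35.5% of the Cxcl13 UMIs of the enriched naive library.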

How the results depend on the processing

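Each group has 1 library, so no replicate could be left out. No paired analysis was possible because each group has a single library and no result comes from a test. The share of kept cells, in the order naive, YUMM1.7 and YUMMER1.7, was 11.7%, 7.84% and 9.04% with at least 3 UMIs of Ccr7 and Fscn1, and 17.2%, 11.9% and 12.7% with at least 1. It was 15.9% and 10.2% in naive and YUMM1.7 with a stricter cell filter. It was 6.11%, 4.19% and 5.06% after thinning before the gate, and 7.33%, 5.30% and 3.56% without mixed-identity cells. It was 18.4%, 10.7% and 12.7% over cells without Cd3e or Cd79a, and 13.2% and 9.47% in naive and YUMMER1.7 without sub-clusters 4, 7 and 9. Naive was highest under each of these.

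Counts of genes at least 2-fold higher and lower moved with the floor and with thinning. With a mean of at least 50 CPM they were 24 and 4 in YUMM1.7 against naive, 63 and 29 in YUMMER1.7 against naive, and 4 and 1 between the tumour libraries. With at least 2 CPM they were 305 and 205, 443 and 409, and 114 and 168. After thinning before the gate they were 247 and 325, 353 and 431, and 299 and 320, from far fewer UMIs. Without mixed-identity cells 35 genes were higher and 95 lower in YUMMER1.7 than in YUMM1.7. Other settings, median-of-ratios scaling included, kept each count within 1.5 times, and that scaling shifted log2 ratios by at most 0.0026.

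Single genes reversed as follows, and the cause was not tested. After thinning, the YUMMER1.7 to YUMM1.7 ratios of Cadm2, Hdac9, Sgcz and Naaa were 0.23, 0.0214, 1.86 and −0.18, and the YUMM1.7 to naive ratios of Naaa and Retnla 0.2957 and 0.0563. Without high doublet scores Cxcl10 was −0.47 in YUMM1.7 against naive, and Retnla 0.11 and 0.12 in YUMM1.7 and YUMMER1.7. Without sub-clusters 4, 7 and 9 Cxcl10 was −0.15, and Retnla 0.0471 and 0.43. Without mixed-identity cells Osm was −0.0197 in YUMMER1.7 and Retnla 0.23 in YUMM1.7 against naive. The settings without sub-clusters 4, 7 and 9, and without the highest cell of each gene, were chosen after seeing the data.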
